A study of Mus musculus with 12 samples.

Results

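TCRα clonotypes whose CDR3 cannot be read as a protein were examined in newly developed thymic Treg of 3 genotypes. A row was taken when its CDR3 translation held a stop codon or a frame shift and its J segment was none of TRAJ7, TRAJ44, TRAJ47 and TRAJ25. A stop codon row is one whose translation in the authors' tables holds a stop but no mark of a frame shift, and a frame shift row is one marked as out of frame. The rule found 1251 rows of 57431 in all, of which 1175 were frame shift rows with 2252 UMIs and 76 were stop codon rows with 130 UMIs. They were compared with the 53759 productive rows, 190525 UMIs, of the same J segments and libraries. The 4 J segments left out were non-productive in 99.3% to 100% of their UMIs, against 1.23% at the 40 other TRAJ segments. Of the 76 stop codon rows, 73 had a CDR3 length divisible by 3 and 3 did not, and 2 held no stop when the deposited nucleotides were read from the first base of the CDR3. Of the frame shift rows, 253 also held a stop.

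Each library came from 1 mouse aged 3 weeks, and 100000 CD4+CD8-Thy1.1+GFP+ thymocytes were sorted for it. All mice were B6 with the Rag2-Gfp reporter, which marks cells that expressed Rag2 recently, the Foxp3-Thy1a reporter, which puts Thy1.1 on Foxp3-expressing cells, and the Kaa Tcrb transgene, so that the cells share a TCRβ chain. All were also Tcra+/null, with 1 Tcra allele carrying a null mutation, the controls included. The groups were wt mice, mice null for Il2 (Il2null) and mice null for Il15 (Il15null), 4 libraries each. A unique molecular identifier (UMI) is a random tag put on each mRNA molecule during cDNA synthesis, so that its count is a count of molecules. The libraries held between 7378 and 25092 UMIs at the 40 TRAJ segments. The tables hold TCRα rows only, so the identity of the sorted cells could not be checked against other genes. In such a bulk sample, fewer cells with a transcript and less transcript per cell cannot be told apart.

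The TCRα chain is made by joining 1 of many TRAV segments to 1 of many TRAJ segments, with bases trimmed from and added to the ends before they are sealed. Joins that leave J out of the reading frame of V, or that create a stop codon, give mRNA that cannot encode a receptor. Such mRNA is a target of nonsense-mediated decay, and cells with a non-productive join can continue to rearrange the locus. TRAV names with D or N, such as TRAV4D-3 and TRAV4N-3, denote copies of a segment in duplicated stretches of the locus. Copies can be close to identical, so the assignment of a read to 1 copy is uncertain.

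The stop codon sequences that had the highest mean share or stood in the most libraries show where the stop lies. The stop codon is in capitals, and the sequence is the deposited CDR3 from the 5′ end.
TRAV10 with TRAJ23: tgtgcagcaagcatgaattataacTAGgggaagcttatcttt
TRAV7-5 with TRAJ23: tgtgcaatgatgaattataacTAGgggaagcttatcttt
TRAV8D-2 with TRAJ37: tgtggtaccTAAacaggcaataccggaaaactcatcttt
TRAV4-4/DV10 with TRAJ23: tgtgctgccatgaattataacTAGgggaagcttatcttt
TRAV4-2 with TRAJ23: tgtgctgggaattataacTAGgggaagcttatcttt
TRAV14-1 with TRAJ23: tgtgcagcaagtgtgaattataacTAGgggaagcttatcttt
Of these 6 sequences, 5 use TRAJ23 and carry the same stop codon at the same place, codon 6 counted from the end of the CDR3. They join it to 5 different TRAV segments.

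The frame shift sequences chosen in the same way are shown because several carry a base in their J part that differs from the reference genome. That base is in capitals where it was found. In the TRAV13-1 sequence with TRAJ31, the bases just before the marked one are gata, where the reference has aata.
TRAV13-4/DV7 with TRAJ45: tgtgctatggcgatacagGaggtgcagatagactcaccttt
TRAV13-1 with TRAJ31: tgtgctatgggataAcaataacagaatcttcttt
TRAV13D-1 with TRAJ23: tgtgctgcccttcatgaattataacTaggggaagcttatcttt
TRAV19 with TRAJ57: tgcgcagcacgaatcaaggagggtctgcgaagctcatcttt
TRAV6-1 with TRAJ27: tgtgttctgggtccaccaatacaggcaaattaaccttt
TRAV8D-2 with TRAJ11: gggatacaacaaactcactttt
TRAV3-3 with TRAJ31: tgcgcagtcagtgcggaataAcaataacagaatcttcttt
The TRAV8D-2 sequence with TRAJ11 lacks the opening cysteine codon and, at 22 bases, is shorter than any of the others shown. The other 6 have between 34 and 43 bases.

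Certain pairs of libraries shared many more sequences than the rest, and this bears on every count across libraries. A sequence means a TRAV segment, a CDR3 nucleotide sequence and a TRAJ segment. Of the 66 pairs of libraries, 10 held more than 100 productive sequences found in those libraries and in no other, between 120 and 1231 a pair, while no other pair exceeded 93. The limit of 100 was set after these counts were seen. These linked pairs were wt replicates 1 and 2, wt 3 and 4, Il2null 2 and 3, Il2null 3 and 4, Il15null 1 and 4, 2 and 3, and 3 and 4, and, across genotypes, wt 2 with Il2null 1, wt 3 with Il2null 1, and wt 4 with Il2null 4. They held 193 of the 207 non-productive sequences found in exactly 2 libraries (93.2%) and 6211 of 7614 such productive sequences (81.6%). In 183 of the 193, the lower of the 2 counts was 1 UMI, and the median of the higher count was 3 UMIs. The 2 counts were equal in 50. What links the libraries was not tested. The 12 libraries are therefore not fully independent of each other. Some results are also given with the lower copy of linked sequences found in at most 3 libraries removed. Both copies stayed where their counts were equal, so this removal is partial.

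**Figure D1:**
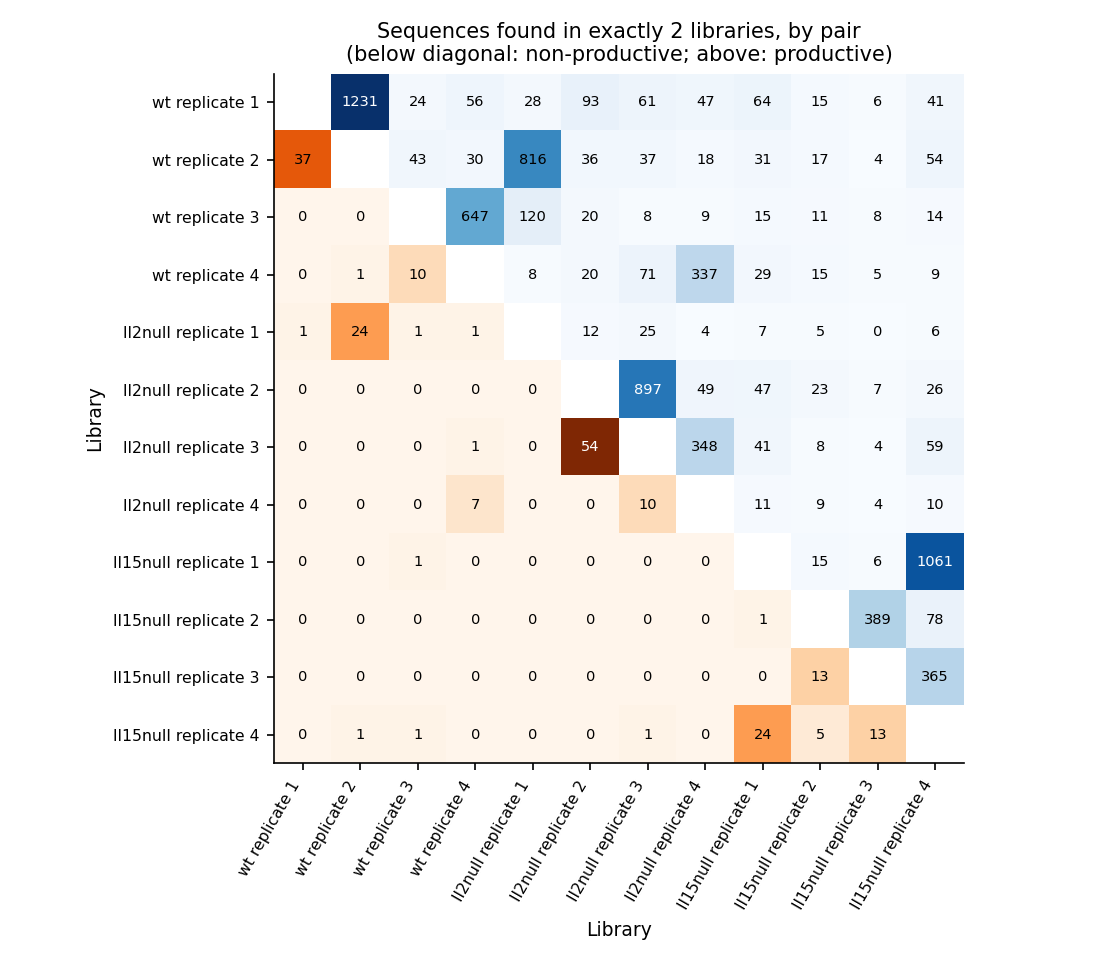
Number of sequences found in exactly 2 libraries for each pair of the 12 libraries, with non-productive sequences below the diagonal and productive ones above it, and darker colour for higher counts. The largest counts of both kinds fall in the same pairs, for example 54 non-productive and 897 productive sequences in Il2null replicates 2 and 3.

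Non-productive sequences were mostly found in 1 library. Of 942 distinct frame shift sequences, 728 (77.3%) were in 1 library, 198 in 2, 14 in 3 and 2 in more, with a highest number of 5 libraries. Of 59 distinct stop codon sequences, 46 (78.0%) were in 1 library, 9 in 2 and 4 in 3. Of 28601 distinct productive sequences, 16240 (56.8%) were in 1 library and 107 were in all 12. No non-productive sequence was present in all 4 libraries of a genotype, against 489 of the 28601 productive sequences in wt, 328 in Il2null and 315 in Il15null. Few non-productive sequences were abundant enough for this. Only 7 of 942 frame shift and 2 of 59 stop codon sequences had 10 or more UMIs, against 3230 productive ones. Presence in all 4 libraries was not compared at equal UMIs.

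Abundant sequences were found in more libraries, so presence in 2 or more libraries was also counted at equal total UMIs. Among sequences with 2 UMIs over all libraries, 25.1% of 199 frame shift sequences and 30.5% of 4385 productive sequences were in 2 libraries. Among those with 3 to 4 UMIs, 34.2% of 266 frame shift sequences and 38.1% of 8738 productive sequences were in 2 or more libraries. Among those with 5 to 9 UMIs the shares were 77.6% of 85 and 76.9% of 5933. With 10 or more UMIs there were 7 frame shift sequences, all in 2 or more libraries, and 3230 productive ones, of which 96.8% were. At these totals the frame shift and productive shares lay within 6 percentage points of each other.

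The named sequences show the same pattern. The TRAV10 stop codon sequence with TRAJ23 had 11 UMIs in Il15null replicate 3 and 1 UMI each in Il15null replicates 1 and 4, and was absent elsewhere. The TRAV7-5 sequence had 8, 1 and 1 UMIs and the TRAV8D-2 sequence had 7, 1 and 1 UMIs in those same libraries. The TRAV13-4/DV7 frame shift sequence with TRAJ45 had 12, 1 and 2 UMIs there. All 4 were high in Il15null replicate 3 and low in libraries linked to it, directly or through replicate 4. The TRAV13D-1 sequence with TRAJ23 had 8 UMIs in wt replicate 3, 5 in wt replicate 4 and 1 in Il2null replicate 4. The most widespread sequence, TRAV8D-2 with TRAJ11, had 6 UMIs over 5 libraries, 1 or 2 in each.

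The first comparison asks whether loss of IL-2 or IL-15, cytokines that sustain Treg, went with another share of non-productive TCRα mRNA. Frame shift UMIs made up 1.08%, 1.16%, 0.554% and 0.925% of the UMIs in wt replicates 1 to 4. They made up 1.13%, 1.94%, 1.82% and 1.04% in the Il2null replicates. In the Il15null replicates the shares were 0.816%, 1.68%, 1.06% and 0.840%. Il2null replicates 2 and 3 and Il15null replicate 2 were the highest and wt replicate 3 the lowest, and the 3 groups overlapped.

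Stop codon UMIs made up 0.0478%, 0.0432%, 0.0515% and 0.0237% in the wt replicates. The Il2null replicates held 0.0698%, 0.0445%, 0.115% and 0.122%. The Il15null replicates held 0.0402%, 0.0751%, 0.277% and 0.0389%. The groups overlapped here too, and Il15null replicate 3 stood apart. Of its 29 stop codon UMIs, 26 belonged to 3 sequences, the TRAV10, TRAV7-5 and TRAV8D-2 sequences shown above. The share that 3 UMIs make up ranged from 0.0120% to 0.0407% of a library, so that a stop codon share rests on 4 to 29 molecules.

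**Figure D2:**
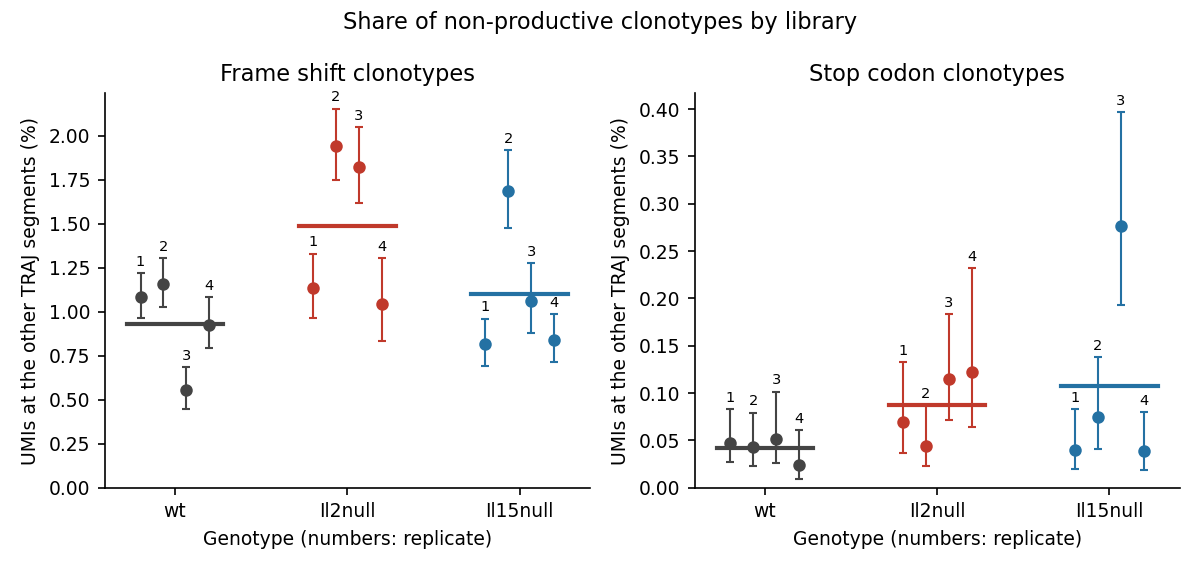
Percent of the UMIs at the 40 TRAJ segments that were in frame shift rows (left) and stop codon rows (right), one point per library with its 95% Wilson interval and a bar at the mean of the 4 libraries of a genotype. The groups overlap in both plots, and Il15null replicate 3 lies above all other libraries in stop codon rows at 0.277%.

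All non-productive rows together held 0.972% ± 0.266 of the UMIs in wt, 1.57% ± 0.449 in Il2null and 1.21% ± 0.429 in Il15null libraries (SD, n = 4). Il2null exceeded wt by 0.600 percentage points (exact Mann-Whitney test, 2-sided, p = 0.0571, adjusted p = 0.45 over 9 comparisons). Il15null exceeded wt by 0.235 points (exact test, p = 0.686, adjusted p = 0.771) and differed from Il2null by -0.365 points (exact test, p = 0.343, adjusted p = 0.617). With frame shift and stop codon rows apart, the adjusted p lay between 0.45 and 1 (exact tests). With 4 libraries against 4, no p below 0.0286 can be reached. With the lower copies of linked libraries removed, the Il2null difference was 0.610 points (exact test, p = 0.0571, adjusted p = 0.343). Without Il15null replicate 3, the stop codon difference between Il15null and wt fell from 0.0662 to 0.00986 points.

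Single sequences were also compared between genotypes with edgeR over all clonotypes, productive ones included. None of the members reached the minimum of 5 UMIs in at least 4 of 8 libraries. Of 376 clonotypes tested for Il2null against wt, 0 were called (0%), with 24 at an unadjusted p under 0.05. For Il15null against wt 0 of 430 were called (0%), with 20 at an unadjusted p under 0.05, and for Il15null against Il2null 2 of 308 (0.649%). In simulated counts with the means and library sizes of these clonotypes, some clonotypes were changed 4-fold. The test recovered 29 of 188, 6 of 200 and 37 of 154 of them in the 3 comparisons. The few calls therefore do not show that the clonotypes were alike. DESeq2 called 2, 5 and 4, and no member was among those it tested. Without the minimum, 159, 125 and 133 members were tested in the 3 comparisons and edgeR called 0 of them, as it did of all 9720, 9026 and 7571 clonotypes then tested (0% each). At an unadjusted p under 0.05 there were 0, 12 and 5 members, against 512, 774 and 633 of all clonotypes (5.27%, 8.58% and 8.36%), and nothing is read from these counts.

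Compared within the same library, non-productive rows held fewer molecules per row than productive rows in most libraries. Rows seen as a single UMI made up between 32.0% and 71.9% of frame shift rows, with a median of 56.7%, and between 19.1% and 59.6% of productive rows, with a median of 38.1%. The frame shift share was higher in 11 of 12 libraries, by 16.7 points on average (exact sign-flip permutation test over libraries, 2-sided, p = 0.000977, adjusted p = 0.00163). Of stop codon rows, 40% to 100% were single UMIs, higher than productive rows in 10 of 12 libraries (exact permutation test, p = 0.00293, adjusted p = 0.00419). The 2 exceptions were Il2null replicates 3 and 4.

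The mean number of UMIs per row was 1.92 for frame shift, 1.71 for stop codon and 3.54 for productive rows. On the log2 scale the mean of frame shift rows was lower by a difference of -0.84 ± 0.21 (SD of the differences, n = 12), in 12 of 12 libraries (exact permutation test, p = 0.000488, adjusted p = 0.00122). The difference of stop codon rows was -1.20 ± 0.68, with 11 of 12 libraries lower (exact permutation test, p = 0.000977, adjusted p = 0.00163). The largest frame shift row had 12 UMIs and the largest productive row 298. With the lower copies of linked libraries removed, these differences were -0.87 and -1.25. With rows of at least 2 UMIs, the stop codon difference was -0.57 (exact permutation test, adjusted p = 0.0195). The smallest p that 12 libraries allow in this test is 0.000488.

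Frame shift CDR3 sequences were longer than productive ones, and the length of stop codon rows depended on the rows counted. Weighted by UMIs, the mean length of frame shift rows ranged from 40.3 to 44.7 bases between libraries, with a median of 41.4, against 39.1 to 39.3 for productive rows. Frame shift rows were longer in 12 of 12 libraries, by 2.24 ± 1.23 bases (SD, n = 12, exact permutation test, p = 0.000488, adjusted p = 0.00122). Stop codon rows were longer in 12 of 12 libraries, by 9.58 ± 11.3 bases (exact permutation test, p = 0.000488, adjusted p = 0.00122), but with rows of at least 2 UMIs the difference was 2.03 bases and did not pass (exact permutation test, adjusted p = 0.112). Of the rows, 4 stop codon, 7 frame shift and 23 productive ones exceeded 75 bases. Without them the difference was 1.67 bases for frame shift rows, in 12 of 12 libraries, and 1.93 bases for stop codon rows, in 10 of 12 (exact permutation tests, p = 0.000488 and p = 0.00391). The lengths of frame shift rows left a remainder of 1 base after division by 3 in 606 rows and of 2 bases in 569.

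The deposited end of V and start of J give the bases between the segments. Weighted by UMIs there were 1.82 bases in frame shift rows and 1.80 in productive rows, higher in 4 of 12 libraries (exact permutation test, p = 0.957, adjusted p = 0.957). The direction turned and the test passed with each row counted once, at a difference of -1.14 bases (adjusted p = 0.0293, exact test), and with CDR3 of at most 75 bases, at -0.544 (adjusted p = 0.0159, exact test). The value for stop codon rows was 22.9 bases, higher in 11 of 12 libraries (exact permutation test, p = 0.0083, adjusted p = 0.0104). In 4 stop codon, 1 frame shift and 266 productive rows, however, the deposited start of J lay beyond the CDR3. Without these rows the means were 8.60 bases for stop codon, 1.74 for frame shift and 1.36 for productive rows (exact permutation tests against productive rows, p = 0.064 for stop codon and p = 0.178 for frame shift).

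Rows close to a more abundant productive row were also counted. A single-UMI row was called close when its CDR3 was 1 substitution, insertion or deletion away from a productive row of the same library, TRAV and TRAJ with more UMIs. Between 0% and 16.7% of single-UMI frame shift rows were close, with a median of 6.50%, against 15.3% to 28.3% of productive rows. The frame shift share was lower in 12 of 12 libraries, by a difference of -14.5 points (exact permutation test, p = 0.000488, adjusted p = 0.00122). Where the productive row had to hold at least 10 times the UMIs, the difference was -2.31 points (exact permutation test, adjusted p = 0.00837). A frame shift row can differ from a productive row by an insertion or deletion only, which limits this comparison. A close row must also share TRAV and TRAJ, and frame shift rows more often used segments with few productive rows. TRAV13-1, raised in frame shift rows, had 43 productive rows, and TRAV4D-3, lowered in them, had 7705. The number of productive rows available as neighbours was not adjusted for. In stop codon rows the difference was -9.61 points (exact permutation test, p = 0.118, adjusted p = 0.131). Without wt replicate 3, where 60% of these rows were close, it was -14.2 points with an adjusted p of 0.00854 in the same exact test. With at least 10 times the UMIs in the productive row it turned to 3.44 points (exact permutation test, adjusted p = 0.529), and over rows of any UMI count it was -11.5 points (adjusted p = 0.0401, exact test). The last 9 bases usual for their J segment were missing in 5.28% of frame shift rows, 6.58% of stop codon rows and 0.504% of productive rows.

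The TRAV segments of frame shift rows differed from those of productive rows. Of 43 segments at 1% or more, 16 were higher (37.2%) and 12 lower (27.9%) in frame shift rows at an adjusted p under 0.05 in the exact sign-flip permutation test over 12 libraries. TRAV3-3, on chromosome 14 at chr14:53665929-53666506 of GRCm38, made up 1.92% to 18.5% of frame shift UMIs, with a median of 6.67%, and 1.06% to 1.78% of productive UMIs. The ranges did not overlap, and the mean difference was 6.22 points, higher in 12 of 12 libraries (exact permutation test, adjusted p = 0.0021). TRAV13-1, at chr14:53545014-53545525, had a median of 3.33% of frame shift UMIs and 0.0348% of productive UMIs. It was higher in 11 of 12 libraries, by 3.47 points (exact permutation test, adjusted p = 0.00323). TRAV4-3, at chr14:53598828-53599410, had medians of 2.78% and 0.204% and was also higher in 11 of 12 libraries, by 3.40 points (exact permutation test, adjusted p = 0.00323). With D and N copies merged, TRAV4-3 then includes TRAV4D-3 and TRAV4N-3 and was lower in frame shift rows. Its direction therefore depends on the assignment of reads to copies.

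The segments with the largest negative differences were among the most used in productive rows. TRAV4D-3, at chr14:52899969-52900470, made up 10.5% to 21.4% of productive UMIs but 0% to 6.85% of frame shift UMIs, a mean difference of -13.9 points in 12 of 12 libraries (exact permutation test, adjusted p = 0.0021). TRAV4N-3, at chr14:53210906-53211407, differed by -6.51 points and TRAV12N-3, at chr14:53240745-53241244, by -4.87 points, both lower in 12 of 12 libraries (exact permutation tests, adjusted p = 0.0021 each). The frame shift median was 0.722% for TRAV4N-3 and 0.369% for TRAV12N-3, against 8.27% and 5.85% in productive rows.

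**Figure D3:**
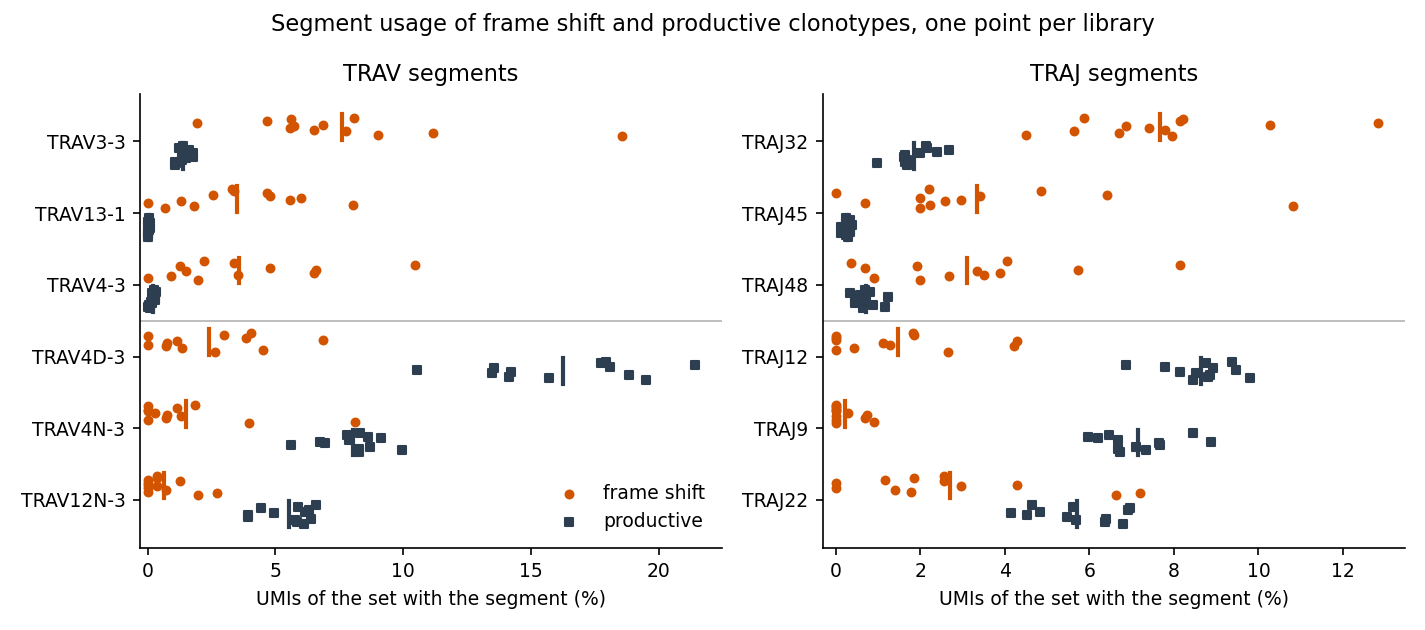
Percent of frame shift UMIs (circles) and productive UMIs (squares) with a given TRAV (left) or TRAJ (right) segment, one point per library and a bar at the mean of 12, for the 3 segments with the largest positive and the 3 with the largest negative mean difference. TRAV3-3 and TRAJ32 are higher in frame shift than in productive rows without overlap, and TRAV4D-3, TRAV12N-3, TRAJ12 and TRAJ9 are lower without overlap.

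The share of a segment's own UMIs that were non-productive varied widely. It was 81.0% for TRAV15-1/DV6-1 with 21 UMIs, 57.3% for TRAV13-1 with 164 UMIs (95% Wilson interval 49.7% to 64.6%), 57.0% for TRAV4-4/DV10 with 128 UMIs and 52.3% for TRAV8-2 with 44 UMIs. Counting each distinct sequence once, the shares of these 4 segments were 76.9%, 50%, 55.8% and 45.5%. Of these 4, TRAV8-2 alone is annotated as a pseudogene in GENCODE. At the other end, TRAV4D-3 was non-productive in 0.183% and TRAV4N-3 in 0.169% of their UMIs. TRAV11, which invariant NKT cells use, had 14 non-productive of 130 UMIs, and TRAV1, used by MAIT cells, 3 of 1475.

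Grouped by the letter in their name, TRAV segments without D or N were non-productive in 2.24% of 72718 UMIs, D copies in 0.838% of 81910 and N copies in 0.178% of 38279. Segments without the letter were above D copies in 12 of 12 libraries, and D copies above N copies in 12 of 12. N copies supplied 2.85% of non-productive and 20.1% of productive UMIs. Of 11 TRAV families with both kinds, the N copies lay below the segments without the letter in 10. D copies lay above the segments without the letter in the TRAV7, TRAV10 and TRAV16 families, and below them in the other families with D copies. The TRAV4 family supplied 44717 of the 81910 UMIs of D copies. Of 104 TRAV names in the tables, 18 had no non-productive row, and 13 of these were N copies. The 18 names held 4959 productive UMIs together, from 5 for TRAV13-5 to 1404 for TRAV13N-2. At the lowest of these depths a count of 0 says little, so nothing is read from these numbers of names. With each distinct sequence counted once, the 3 shares were 6.18%, 2.26% and 0.638%. This grouping was chosen after the values were seen, and no test was made.

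The TRAV comparison of stop codon rows rests on few molecules. Of 38 segments, 0 were higher (0%) and 9 lower (23.7%) than in productive rows at an adjusted p under 0.05 in the same exact test. Of the 9 lower segments, 7 had 0 stop codon UMIs. Such a segment gets the smallest p of this test if each library holds productive UMIs of it, so these calls add nothing to the count of 0. A count of 0 among the 130 stop codon UMIs allows a share of up to 2.31%, and 5 of the 9 lower segments made up no more than that of productive rows. The 4 others were TRAV7-3, TRAV7-2, TRAV4N-3 and TRAV4D-3. TRAV4N-3 and TRAV7-2 had 0 stop codon UMIs against means of 8.02% and 6.28% of productive UMIs, and TRAV4D-3 had 4 UMIs in 3 libraries. The segments with the largest positive differences, TRAV4-3, TRAV4-4/DV10 and TRAV4-2, had 6, 6 and 7 stop codon UMIs in 4, 2 and 3 libraries (exact permutation tests, adjusted p = 0.432, 0.741 and 0.607).

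TRAJ segments are used in the course of rearrangement from the V-proximal end, with high numbers, towards the C-proximal end, with low numbers. Of 35 TRAJ segments tested in frame shift rows, 7 were higher (20%) and 5 lower (14.3%). The 7 were TRAJ32, TRAJ45, TRAJ48, TRAJ34, TRAJ56, TRAJ49 and TRAJ52, and the 5 were TRAJ4, TRAJ21, TRAJ22, TRAJ9 and TRAJ12. TRAJ32, at chr14:54186101-54186166, made up 4.50% to 12.8% of frame shift UMIs and 0.977% to 2.68% of productive UMIs, higher in 12 of 12 libraries by 5.82 points (exact permutation test, adjusted p = 0.0057). TRAJ45, at chr14:54172828-54172890, had medians of 2.41% and 0.298% and was higher in 11 of 12 libraries (exact permutation test, adjusted p = 0.00854). TRAJ48, at chr14:54169808-54169868, had medians of 3.01% and 0.687% and was higher in 9 of 12 (exact permutation test, adjusted p = 0.0195).

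TRAJ12, at chr14:54206553-54206610, made up 6.88% to 9.81% of productive and 0% to 4.30% of frame shift UMIs, lower in 12 of 12 libraries (exact permutation test, adjusted p = 0.0057). TRAJ9, at chr14:54209393-54209450, had 5 frame shift UMIs in 4 libraries against 5.98% to 8.88% of productive UMIs, lower in 12 of 12 (exact permutation test, adjusted p = 0.0057). TRAJ22, at chr14:54197248-54197307, was lower in 10 of 12 libraries, by a difference of -2.997 points (exact permutation test, adjusted p = 0.0171). With rows of at least 2 UMIs alone, TRAJ48 and TRAJ22 no longer passed, at adjusted p = 0.0983 and 0.0541 in the exact test. With the lower copies of linked libraries removed, the TRAJ segments called were 7 in place of 12, and these 6 named segments still passed, with adjusted p from 0.0057 to 0.0415.

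Among all UMIs of a segment, the non-productive share ran from 0.0438% for TRAJ9 to 12.2% for TRAJ45 (95% Wilson interval 9.84% to 15.1%). TRAJ35 had 10.6% of 217 UMIs, in 5 libraries, and TRAJ56 had 8.06% of 769 UMIs. Segments from TRAJ58 to TRAJ45 lay between 0.748% and 12.2%, those from TRAJ43 to TRAJ17 between 0.632% and 10.6%, and those from TRAJ16 to TRAJ2 between 0.0438% and 2.12%. These ranges overlap, and TRAJ47, TRAJ44, TRAJ25 and TRAJ7 are left out of them. TRAJ18, the segment of invariant NKT cells, had 1.54%. TRAJ33, that of MAIT cells, had 1.25%. With each distinct sequence counted once, the shares were 15.4% for TRAJ45, 15.5% for TRAJ35, 11.2% for TRAJ56 and 0.208% for TRAJ9.

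**Figure D4:**
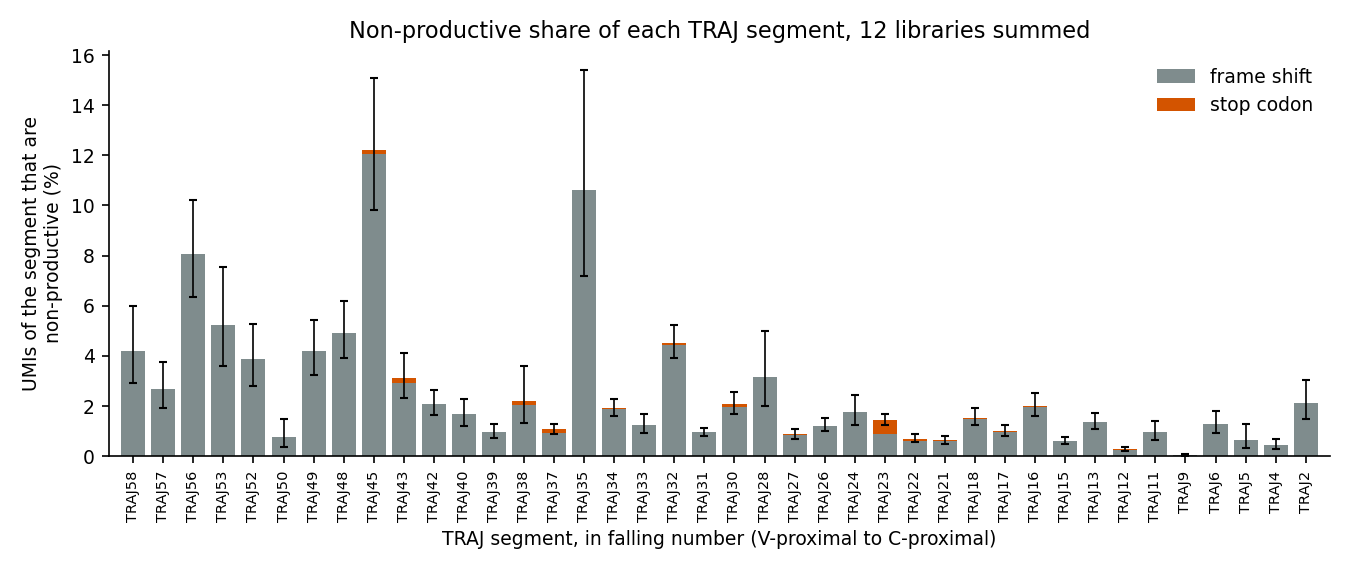
Percent of the UMIs of each TRAJ segment, summed over the 12 libraries, that were in frame shift rows (grey) and stop codon rows (orange), with the 95% Wilson interval of their sum, in falling number of the segment. TRAJ45 reaches 12.2% and TRAJ35 10.6%, TRAJ9 is at 0.0438%, and stop codon rows take a visible part in TRAJ23 above all.

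Stop codon rows used TRAJ23 far more than productive rows did. TRAJ23, at chr14:54196081-54196140, made up 20% to 77.8% of the stop codon UMIs of a library, with a median of 50%, and 5.19% to 7.88% of productive UMIs. It was higher in 12 of 12 libraries, by 42.2 points (exact permutation test, adjusted p = 0.00127), and held 69 of the 130 stop codon UMIs in 32 of 76 rows. It was the only one of 26 TRAJ segments called higher (3.85%) in these rows, and 12 were lower (46.2%). With the lower copies of linked libraries removed, the difference was 39.5 points (exact permutation test, adjusted p = 0.00127). TRAJ22 with 11 and TRAJ37 with 15 stop codon UMIs had the next largest differences, each in 6 of 12 libraries (exact permutation tests, adjusted p = 0.377 each). TRAJ31 and TRAJ15 had 0 stop codon UMIs against means of 9.03% and 5.43% of productive UMIs, and TRAJ9 had 1 against 7.16% (exact permutation tests, adjusted p = 0.00127, 0.00127 and 0.00231). Of the 12 lower segments, 9 had 0 stop codon UMIs, TRAJ31 and TRAJ15 among them. Their p follows from that count of 0 whatever their productive share, so these calls add nothing to it. Of the 12 lower segments, 4 made up no more than the 2.31% of productive UMIs that a count of 0 allows.

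The stop itself was TAG in 44 rows, TGA in 19 and TAA in 11. Of the 44 rows with TAG, 31 used TRAJ23. In 30 of the 32 TRAJ23 rows, with 67 UMIs, the stop was codon 6 counted from the end of the CDR3, inside the part that TRAJ23 encodes. The GENCODE sequence of TRAJ23 has cag there, and these rows have TAG.

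The J-encoded part of the members was therefore set against the GENCODE sequence of each TRAJ segment (GRCm38, the C57BL/6J reference). A base was read only where the 4 bases on either side matched the segment. The mark in the TRAV13-1 sequence with TRAJ31 shown above does not meet this on its 5′ side. That sequence has 14 UMIs, and whether they are among the TRAJ31 counts below was not checked. Bases that differed in at least 5% of the frame shift UMIs read and in at least 3 rows were found in 6 of the 40 segments. The 6 pairs are shown with the differing bases in capitals, the reference first.
TRAJ45 reference: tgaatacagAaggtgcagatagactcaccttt
TRAJ45 other base: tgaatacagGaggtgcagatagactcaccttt
TRAJ37 reference: taacaggcaatacCGgaaaactcatcttt
TRAJ37 other bases: taacaggcaatacTAgaaaactcatcttt
TRAJ34 reference: tcttccaataccAacaaagtcgtcttt
TRAJ34 other base: tcttccaataccGacaaagtcgtcttt
TRAJ32 reference: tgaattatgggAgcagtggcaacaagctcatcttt
TRAJ32 other base: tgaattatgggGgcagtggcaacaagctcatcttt
TRAJ31 reference: ggaataGcaataacagaatcttcttt
TRAJ31 other base: ggaataAcaataacagaatcttcttt
TRAJ23 reference: tgaattataacCaggggaagcttatcttt
TRAJ23 other base: tgaattataacTaggggaagcttatcttt
Counted from 1 at the 5′ end of the segment, the differences are A10G in TRAJ45, C14T with G15A in TRAJ37, A13G in TRAJ34, A12G in TRAJ32, G7A in TRAJ31 and C12T in TRAJ23. The sequences stop at the last codon of the CDR3.

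Frame shift rows carried the other base in nearly all UMIs in which it could be read. It was found in 45 of 50 frame shift UMIs of TRAJ45, 85 of 97 of TRAJ37, 96 of 107 of TRAJ34, 116 of 123 of TRAJ32, 37 of 42 of TRAJ31 and 94 of 104 of TRAJ23. In productive rows it was found in 41 of 302 UMIs of TRAJ45, 46 of 10095 of TRAJ37, 56 of 5367 of TRAJ34, 85 of 2968 of TRAJ32, 32 of 10923 of TRAJ31 and 0 of 10710 of TRAJ23. TRAJ45 had the largest productive share, 13.6%, and at TRAJ23 the other base gives the stop codon, which the rule for productive rows leaves out. All 67 stop codon UMIs of TRAJ23 that could be read carried it, a share that the rule for stop codon rows largely fixes. In the stop codon rows of TRAJ37, 5 of 14 UMIs, in 3 of 6 rows, had the other bases.

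Over the 6 segments together, 473 of 523 frame shift UMIs had the other base (90.4%, 95% Wilson interval 87.6% to 92.7%), and 260 of 40365 productive UMIs (0.644%, 0.571% to 0.727%). The productive counts in this paragraph include TRAJ23, with 10710 UMIs, where the rule for productive rows leaves out the other base. This lowers the productive shares. In single libraries the frame shift share ranged from 70.0% in Il15null replicate 3 to 100% in wt replicate 3 and Il2null replicate 2, with a median of 91.6%. The productive share ranged from 0.150% to 1.14%. In each of the 12 libraries the frame shift share was the higher one. By genotype, 163 of 180 frame shift UMIs had the other base in wt, 185 of 192 in Il2null and 125 of 151 in Il15null. With each distinct sequence counted once, it was 190 of 211 frame shift sequences and 130 of 4574 productive sequences. The positions were chosen from these rows after their values were seen, so these shares are a description without a test. The bases could be read in 23.2% of all frame shift UMIs.

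**Figure D5:**
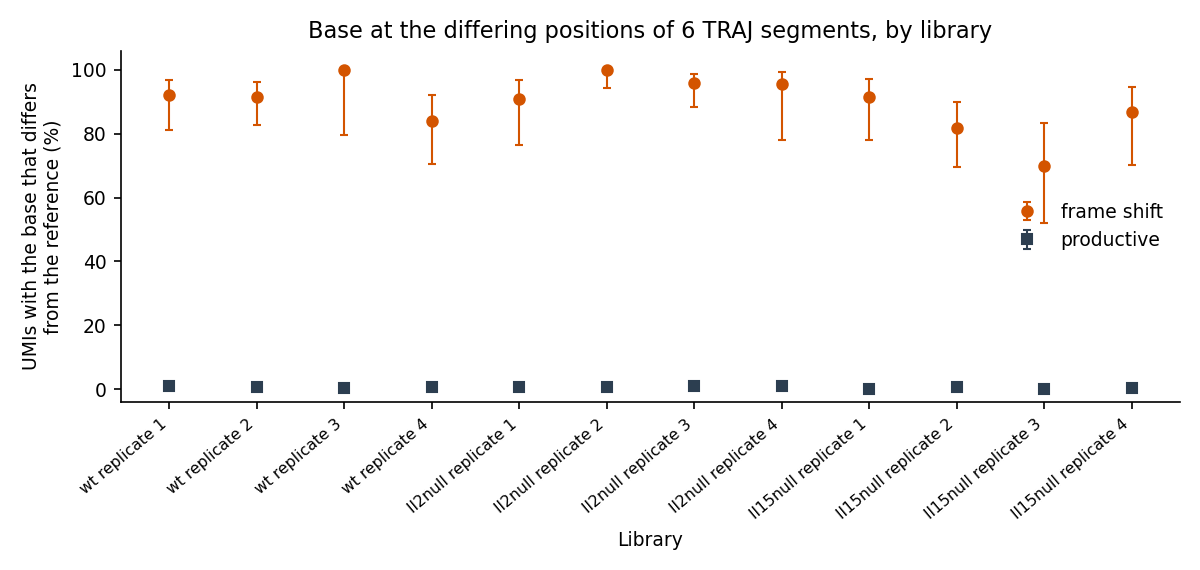
Percent of the UMIs with a readable base at the differing positions of 6 TRAJ segments that carried the base other than the reference, for frame shift rows (circles) and productive rows (squares) of each library, with 95% Wilson intervals. Frame shift rows lie between 70.0% and 100% and productive rows between 0.150% and 1.14% in the 12 libraries. Productive rows include TRAJ23, where the rule leaves out the other base.

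Rows with the other J base also differed in their TRAV copies. Of 473 such frame shift UMIs, 0 were on an N copy of TRAV, 126 on a D copy and 347 on a segment without the letter. Of the 260 productive UMIs with the other base, 0 were on an N copy. Among productive UMIs with the reference base, 4393 of 40105 were on N copies (10.95%), and among the 50 frame shift UMIs with the reference base 4 were. This comparison was also made after the values were seen.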

How the data were processed

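TCRα mRNA of 12 libraries was sequenced by the authors, who filtered reads at a quality of 20, built a consensus per UMI with at least 2 reads in pRESTO, assigned segments with MiXCR and wrote VDJtools tables. The deposited count is the number of UMIs of a row, unnormalized, and the deposited fraction is that count over the library total, which was not used further. The deposited positions of the end of V and start of J are other values of the authors' aligner. The submitters' processing notes name mm10. Segment sequences and positions came from GENCODE M21 (GRCm38), in which 101 of 104 TRAV and 40 of 40 TRAJ names were found.

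Members and lists were chosen with earlier results of these data known. Shares of UMIs were compared between genotypes with exact 2-sided Mann-Whitney tests, and members with productive rows of the same library with exact sign-flip permutation tests, each adjusted by Benjamini-Hochberg and called under 0.05. Each mouse is 1 replicate. For single clonotypes, edgeR's quasi-likelihood test was run on those that reached 5 UMIs in 4 or more of 8 libraries. The sequences named are the 5 with the highest mean percent and the 5 in the most libraries, for stop codon and frame shift rows apart. The segments named are the 3 with the largest positive and the 3 with the largest negative differences of each usage comparison; others were named after their values were seen. Intervals are 95% Wilson intervals and cover counting error only, as does the limit of 3 UMIs.

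Scripts were tested on simulated data. Software was Python 3.11.15, numpy 2.4.6, pandas 2.3.3, scipy 1.17.1, matplotlib 3.10.9, R 4.3.3, edgeR 4.0.16 and DESeq2 1.42.0. Alternatives covered the denominator, rows of at least 2 UMIs, each row counted once, the replicate block, each library left out, merged TRAV copies, the edgeR settings and, added after seeing the data, linked libraries, CDR3 over 75 bases and the start of J.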

Additional observations from a re-analysis of the deposited data

Results flagged for a closer look

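Of 41 groups of 4 libraries, 5 held a library whose gap to the next was larger than Dixon's 95% limit, a limit that chance passes in about 1 of 20 groups. The stop codon share was 0.277% in Il15null replicate 3, against 0.0389%, 0.0402% and 0.0751% in the other 3. The log2 mean of UMIs per stop codon row was 0 in Il2null replicate 2, where each of its 8 rows had 1 UMI, against 0.85, 0.85 and 0.92. The mean length of stop codon CDR3 was 59.75 bases in wt replicate 1, against 40.75, 41.6 and 43.5. In wt replicate 3, 60% of single-UMI stop codon rows were close to a more abundant productive row, against 0% in the other 3. The share of frame shift rows with 1 UMI was 48.1% in Il15null replicate 2, against 60.2%, 60.9% and 61.3%. Differences between genotypes in the contrast of non-productive with productive rows passed the 0.05 threshold in 0 of 30 exact tests.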

How the results depend on the processing

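No share compared between genotypes passed in an alternative, but with 1 library left out no p below 0.0571 can be reached, and with the replicate block none below 0.125, so these settings could give no call. The lower UMI numbers of non-productive rows, their larger share of single UMIs and the longer CDR3 of frame shift rows kept their direction and their side of the threshold in all alternatives run. Leaving out 1 library at a time, the differences in percentage points ranged from 0.462 to 0.736 (all non-productive rows, Il2null against wt), 0.0519 to 0.353 (all, Il15null against wt) and -0.548 to -0.227 (all, Il15null against Il2null). They ranged from -0.0252 to 0.264 for frame shift rows of Il15null against wt, changing sign without Il15null replicate 2, and from -0.0363 to 0.043 for stop codon rows of Il15null against Il2null, changing sign without Il15null replicate 3. Between non-productive and productive rows, leaving out 1 library gave -0.197 to 0.116 bases between segments in frame shift rows and -14.2 to -8.44 points of close rows in stop codon rows. With rows of at least 2 UMIs, the stop codon length difference was 2.03 bases (adjusted p = 0.112 in the exact test) and the bases between segments differed by 0.812 (adjusted p = 0.343, exact). The latter difference was 7.25 with the start of J inside the CDR3 (adjusted p = 0.08, exact). For frame shift rows it was -1.14 with each row counted once (adjusted p = 0.0293, exact) and -0.544 with CDR3 of at most 75 bases (adjusted p = 0.0159, exact). Close stop codon rows differed by -11.5 points over rows of any UMI count (adjusted p = 0.0401, exact) and by 3.44 where the neighbour had at least 10 times the UMIs (adjusted p = 0.529, exact). The causes were not tested.

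With rows of at least 2 UMIs, the called segments were 18 TRAV and 20 TRAJ for stop codon rows and 5 TRAJ for frame shift rows. With all segments tested they were 57 TRAV and 26 TRAJ for stop codon rows and 45 TRAV for frame shift rows. Of the 76 stop codon rows, 57 had 1 UMI, and wt replicate 4, Il2null replicate 2 and Il15null replicate 1 had no others. A segment with no stop codon UMI but productive UMIs in each library gets the smallest p of this test. The higher numbers of called segments in stop codon rows are therefore not added evidence. With D and N copies merged, 14 TRAV were called in frame shift rows, and the merged TRAV4-3, which then includes TRAV4D-3 and TRAV4N-3, differed by -14.8 points in stop codon rows and by -17.0 in frame shift rows. With lower copies removed, 7 TRAJ were called in frame shift rows. DESeq2 called 2, 5 and 4 clonotypes in the 3 comparisons. For Il15null against Il2null, edgeR called 0 with RLE size factors, 0 without the minimum, 0 with the replicate block, 1 with amino acid clonotypes, and 0 to 2 with 1 library left out.

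Replicate numbers are shared by the genotypes but belong to different mice. The correlation of same-numbered libraries' deviations lay between -0.124 and 0.152, over 0.1 in 1 of 12 pairs. With the replicate block, the difference in all non-productive rows was 0.600 points for Il2null against wt (exact permutation test, p = 0.125), the smallest p that 4 pairs allow.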
